A study of Homo sapiens with 18 samples.

Results

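The 7 genes described here are PARP9, DTX3L, PARP14, PARP10 and PARP12, which belong to the interferon-responsive branch of ADP-ribosylation biology, and the DNA repair enzymes PARP1 and PARP2. They were taken by name from a table of 16472 Ensembl gene IDs, and all 7 were present: PARP9 is ENSG00000138496, DTX3L ENSG00000163840, PARP14 ENSG00000173193, PARP10 ENSG00000178685, PARP12 ENSG00000059378, PARP1 ENSG00000143799 and PARP2 ENSG00000129484. All 7 also passed the filter on low values, under which 13280 genes were tested. In short, the 5 interferon-responsive genes rose 5.25-fold to 17.5-fold in mean RPKM by 12 h of interferon in both SP100 genotypes and came part of the way down by 48 h. PARP1 and PARP2 stayed between 0.865 and 1.10 times their untreated mean, and no difference between the genotypes passed the test for any of the 7.

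ADP-ribosylation is the transfer of ADP-ribose from NAD+ onto proteins or nucleic acids by enzymes of the PARP family. PARP1 and PARP2 build poly(ADP-ribose) chains at broken DNA and are present in most cells without infection. A second branch of the family is switched on by interferon: PARP10, PARP12 and PARP14 attach single ADP-ribose units, and PARP9 works as a complex with DTX3L, a ubiquitin ligase of the Deltex family. Type I interferon acts through a receptor on the cell surface and transcription factors that bind a DNA motif, the interferon-stimulated response element, near the start sites of many induced genes.

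RNA was sequenced from NIKS, a keratinocyte line that is immortal but otherwise close to normal, maintained on J2/3T3 mouse fibroblasts that irradiation keeps from dividing. The cells carried wild-type SP100 (WT) or an SP100 knockout (KO); SP100 encodes a protein of PML nuclear bodies. Each genotype was left untreated (0 h) or given human interferon alpha 2a at 25 ng/mL for 12 or 48 h, which gives 6 groups of 3 biological replicates, 18 libraries in all. The study's design therefore asks how each gene responds to interferon at an early and a late time and whether that response depends on SP100. Column names give 1 line per genotype, so the knockout and whatever else sets the lines apart cannot be told apart. Untreated libraries were analysed at 0 h only, and hours with interferon cannot be told apart from hours in culture.

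Values are RPKM, a read density corrected for gene length and for the size of the library, so levels of genes can be set side by side. Between libraries a shift remained. The factors of median-of-ratios scaling, which centres libraries on a common median, were 0.9533 to 0.9695 at 12 h. They were 1.018 to 1.039 in untreated libraries and 1.009 to 1.029 at 48 h. Calls of the 7 genes lost under that scaling are given below. SP100 was measured at 30.1, 31.9 and 27.9 RPKM in replicates 1 to 3 of untreated WT cells and at 16.0, 14.2 and 15.2 in untreated KO cells. It reached 150.8 to 172.1 in WT against 86.5 to 93.2 in KO at 12 h, and 123.7 to 131.3 against 57.4 to 62.4 at 48 h, so the mean in KO was 50.5%, 55.9% and 46.9% of that in WT. SP100 transcript was thus lower in every library labelled KO but not lost, and these values do not measure the protein. The keratinocyte markers KRT5, KRT14, KRT17, TP63, ITGA6, ITGB4 and COL17A1 were all in the table and summed to between 15100 and 17900 RPKM per library. Single markers moved within that sum. At 12 h in WT the log2 change was 0.56 for KRT17, 0.55 for COL17A1, 0.49 for ITGA6 and -0.17 for KRT5. TP63, KRT14 and ITGB4 lay between -0.095 and 0.073. Of 7 fibroblast markers only COL1A1 was in the table, at 1.29 to 3.14 RPKM, and of 5 melanocyte markers only PMEL, at 0.37 to 1.57. Of the leukocyte markers CD14 and CD68 were in the table and PTPRC and CD3E were not; the sum of CD14 and CD68 moved from 24.1 to 25.3 RPKM in untreated WT to 53.1 to 58.9 at 12 h and 37.7 to 43.2 at 48 h, and from 19.6 to 21.1 in untreated KO to 45.0 to 51.5 and 35.9 to 40.4. That sum mixed a rise of CD68 (log2 change 1.39 at 12 h in WT) with a fall of CD14 (-0.84), and its part in the results below was not tested. How reads from the mouse feeder cells were treated is not given in the sources used here. The depth of the libraries is not given either; relative depth read from the steps between low RPKM values spanned a 1.49-fold range. A lower RPKM from fewer cells of a kind and from less RNA per cell cannot be told apart in bulk RNA.

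The start regions of the induced genes are shown first, because a shared motif lies in them. RefSeq windows of 300 bases (250 before the start site and 50 from it, build GRCh38.p14) were available for 6 of the 7 genes; PARP10 had no entry. They were searched on both strands for the core of the interferon-stimulated response element, GAAA, any 2 bases and GAAA again, which reads TTTC, any 2 bases and TTTC on the other strand. The stretches below are written 5′ to 3′ along each gene's own strand, and capitals mark the match. DTX3L is shown from chr3:122564291-122564347 on the plus strand, and PARP9 from the same interval on the minus strand. PARP14 is chr3:122680719-122680843 (plus) and PARP12 chr7:140062947-140063071 (minus). PARP1, chr1:226408089-226408213 (minus), and PARP2, chr14:20343515-20343639 (plus), are shown for contrast and hold no match.
DTX3L: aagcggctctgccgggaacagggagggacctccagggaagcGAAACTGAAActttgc
PARP9: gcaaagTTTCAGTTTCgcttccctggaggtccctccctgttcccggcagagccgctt
PARP14: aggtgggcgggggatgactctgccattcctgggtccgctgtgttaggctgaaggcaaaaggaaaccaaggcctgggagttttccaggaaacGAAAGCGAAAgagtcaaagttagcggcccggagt
PARP12: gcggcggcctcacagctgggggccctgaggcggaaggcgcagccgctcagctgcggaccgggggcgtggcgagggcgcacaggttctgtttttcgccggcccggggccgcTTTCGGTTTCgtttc
PARP1: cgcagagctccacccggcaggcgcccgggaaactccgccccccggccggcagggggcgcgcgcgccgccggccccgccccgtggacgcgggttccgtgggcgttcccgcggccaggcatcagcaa
PARP2: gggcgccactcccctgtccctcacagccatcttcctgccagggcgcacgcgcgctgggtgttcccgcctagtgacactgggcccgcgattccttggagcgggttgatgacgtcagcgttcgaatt

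PARP9 and DTX3L are transcribed away from each other on chromosome 3, and 37 bases lie between the DTX3L start site and the nearer PARP9 start site. The PARP9 stretch above is the reverse complement of the DTX3L stretch, so the 10 bases in capitals are 1 match that both genes share. Counted along each gene, its first base lies 6 bases before the DTX3L start and 41 bases before the PARP9 start. The window of the other RefSeq start of PARP9 held no match. In PARP14 the match began 29 bases before the start and in PARP12 10 bases before it. Across all RefSeq windows 1255 of 35116 held the motif, 3.57%, and among tested genes with a window 380 of 9653 did, 3.94%. Among genes that rose at least 2-fold at 12 h in WT the share was 60 of 145, 41.4%. Among genes called lower there by any amount, a wider rule, it was 97 of 3037, 3.19%. At 48 h in WT 54 of 94 genes that rose at least 2-fold held it, 57.4%. These are counts of letters in a window: a match is not evidence of a bound site, and the lack of one says only that these letters are not in that window. The PARP family genes PARP3, PARP6, PARP8, PARP11, PARP15, PARP16, TIPARP, TNKS2 and ZC3HAV1 had windows without a match, although PARP3, PARP8 and ZC3HAV1 rose at 12 h and PARP6 at 48 h (values below).

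**Figure D1:**
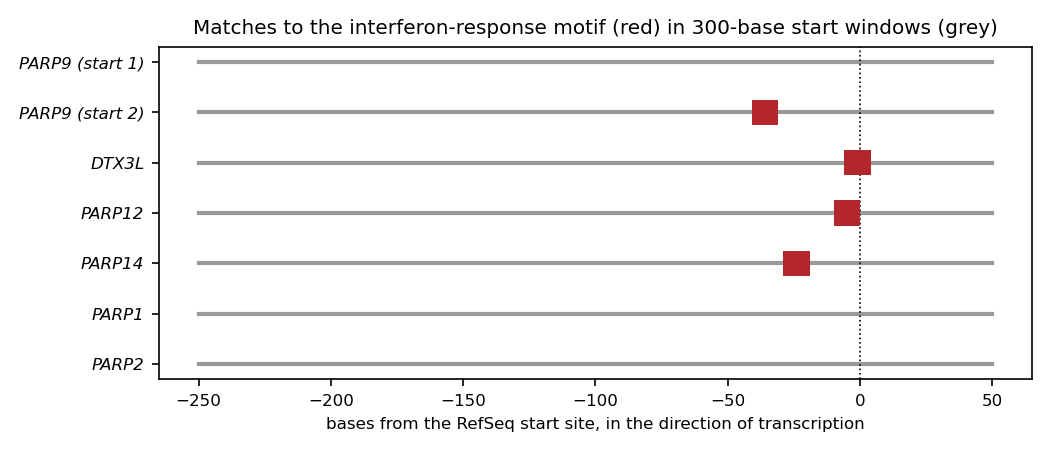
Position of the 10-base motif (GAAA, any 2 bases, GAAA), on either strand, in the RefSeq start windows of the 6 genes that have one (PARP9 has 2 starts). The x axis gives bases from the start site in the direction of transcription, grey lines are the 300-base windows and red boxes the matches. The 4 genes with a match, PARP9 (start 2), DTX3L, PARP12 and PARP14, carry it beginning 6 to 41 bases before the start, and PARP1 and PARP2 have none.

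The PARP9 and DTX3L pair was low in untreated cells and rose with interferon in both genotypes. PARP9, a macrodomain protein of the PARP family, was at 5.75, 5.38 and 5.40 RPKM in replicates 1 to 3 of untreated WT cells, at 96.3, 98.1 and 94.9 after 12 h, and at 76.6, 72.8 and 78.1 after 48 h. The corresponding KO values were 6.04, 5.35 and 5.59 untreated, 103.1, 94.7 and 95.8 at 12 h, and 71.9, 66.6 and 68.1 at 48 h. Every treated library lay far above every untreated one, and every 48 h library lay below every 12 h library. Mean RPKM was thereby 17.5-fold higher at 12 h in WT and 17.3-fold in KO, the largest ratio of the 7 genes.

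DTX3L, the ubiquitin ligase partner of PARP9, was at 8.57, 8.25 and 7.76 RPKM in untreated WT cells, 48.3, 50.1 and 49.5 at 12 h, and 38.4, 37.9 and 40.3 at 48 h. In KO cells it was at 7.88, 7.95 and 7.50 untreated, 52.0, 49.2 and 49.9 at 12 h, and 35.2, 36.4 and 37.6 at 48 h. Its groups at the 3 times did not overlap either, but the rise was smaller, 6.01-fold in WT and 6.48-fold in KO at 12 h.

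PARP14, a macrodomain-containing mono-ADP-ribosyltransferase, was at 7.99, 6.42 and 6.42 RPKM in untreated WT cells, 75.6, 80.5 and 76.1 at 12 h, and 37.4, 37.0 and 37.9 at 48 h. KO cells gave 7.36, 8.36 and 7.37 untreated, 84.5, 78.1 and 80.6 at 12 h, and 36.3, 34.4 and 35.0 at 48 h. Its rise at 12 h, 11.1-fold in WT and 10.5-fold in KO, was the second largest, and its fall by 48 h the steepest of the 7.

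PARP10, a mono-ADP-ribosyltransferase, was at 12.4, 11.9 and 11.7 RPKM in untreated WT cells, 69.3, 56.5 and 71.6 at 12 h, and 51.8, 47.4 and 52.7 at 48 h. In KO cells it was at 10.0, 8.68 and 10.7 untreated, 63.9, 70.8 and 72.2 at 12 h, and 53.7, 58.7 and 50.8 at 48 h. It was the most variable of the induced genes, with an SD of 8.16 RPKM around a mean of 65.8 at 12 h in WT (n = 3), where replicate 2 lay below the other libraries.

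PARP12, a zinc finger mono-ADP-ribosyltransferase, was at 11.4, 13.1 and 11.1 RPKM in untreated WT cells, 60.8, 61.3 and 64.5 at 12 h, and 44.9, 42.1 and 42.2 at 48 h. KO cells gave 12.4, 12.1 and 12.9 untreated, 65.6, 68.2 and 65.2 at 12 h, and 41.1, 41.5 and 41.2 at 48 h. The KO libraries at 12 h all lay above the WT libraries, and those at 48 h all below, with a gap of under 1 RPKM between the nearest libraries in each case.

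**Figure D2:**
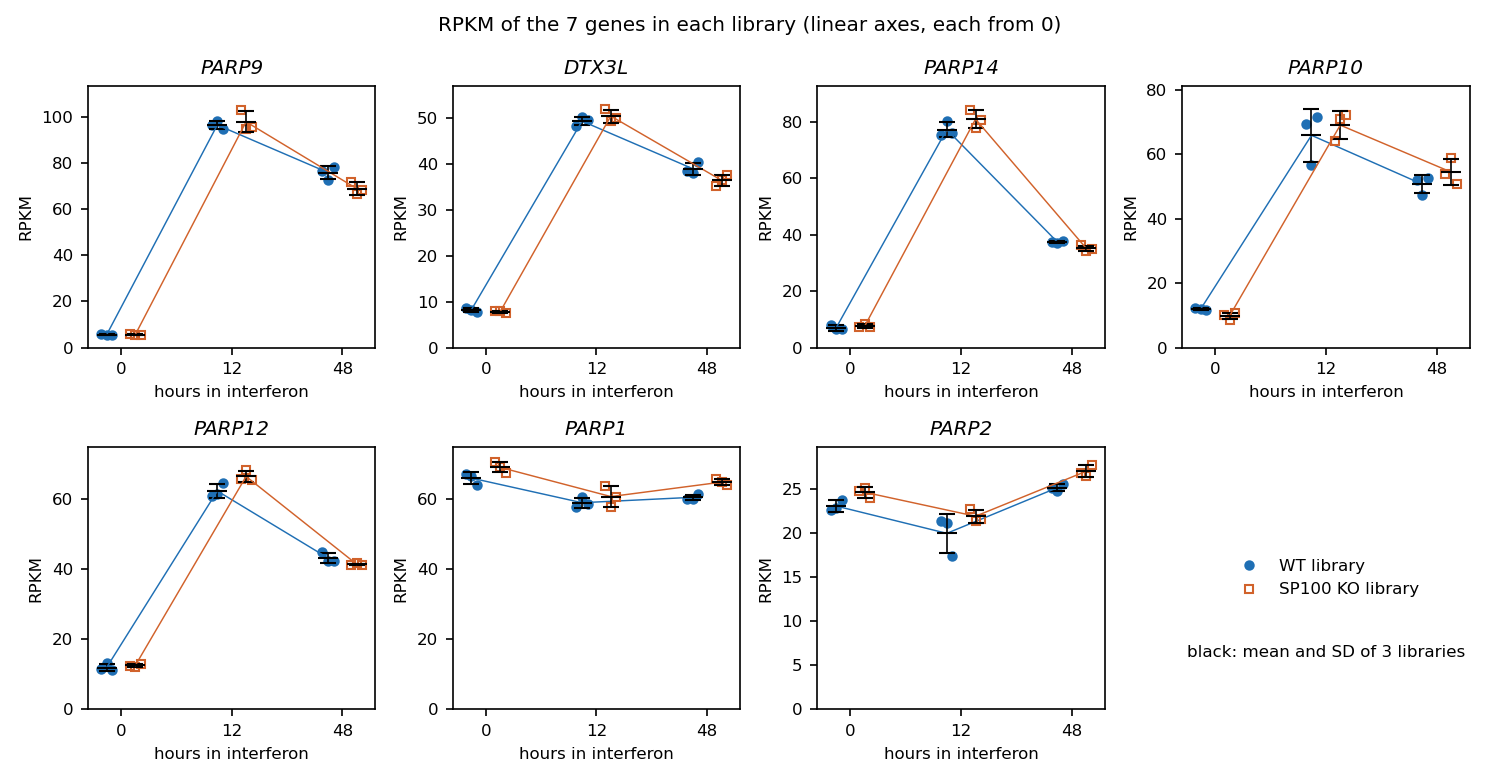
RPKM of the 7 genes in each library, by hours in interferon (the 3 times are evenly spaced on the x axis, not to scale). Filled blue circles are WT libraries, open orange squares SP100 KO libraries, and black bars the mean and SD of 3 libraries; each y axis is linear and starts at 0. PARP9, DTX3L, PARP14, PARP10 and PARP12 peak at 12 h in both genotypes, while PARP1 stays between 57.7 and 70.4 RPKM and PARP2 between 17.3 and 27.7.

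Tested with limma on log2(RPKM + 1), all 5 genes rose at 12 h in both genotypes. The log2 change in WT was 3.90 for PARP9 (SE 0.048, adjusted p = 7.85e-19), 3.31 for PARP14 (SE 0.067, adjusted p = 4.62e-16) and 2.45 for DTX3L (SE 0.044, adjusted p = 1.05e-16). PARP10 rose by 2.36 (SE 0.088, adjusted p = 2.23e-12) and PARP12 by 2.30 (SE 0.052, adjusted p = 1.91e-15). In KO the log2 changes were 3.89, 3.24, 2.55, 2.70 and 2.32 in the same order, with adjusted p-values from 7.62e-19 to 3.2e-13. These 5 rises, with the small falls of PARP1 and PARP2 described below, made 7 of 7 genes called in each genotype, where 44.9% of the 13280 genes tested were called in WT and 48.8% in KO. A rise as such was common, at 15.1% of genes in WT and 16.0% in KO, but a called rise of at least 1 on the log2 scale was seen in 1.64% and 1.75%. Ranked by log2 change among all genes tested in WT, PARP9 was 36th, PARP14 53rd, DTX3L 72nd, PARP10 77th and PARP12 82nd.

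At 48 h all 5 genes were again called higher in both genotypes, where 6.52% of genes tested were called higher in WT and 5.9% in KO. The log2 change in WT was 3.56 for PARP9, 2.28 for PARP14, 2.12 for DTX3L, 1.99 for PARP10 and 1.78 for PARP12, with adjusted p-values from 3.04e-18 to 3.38e-11. In KO it was 3.39, 2.06, 2.09, 2.36 and 1.65 in the same order, with adjusted p-values from 5.63e-18 to 3.1e-12. The 12 h and 48 h changes share the same untreated libraries, so they are not independent of each other.

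**Figure D3:**
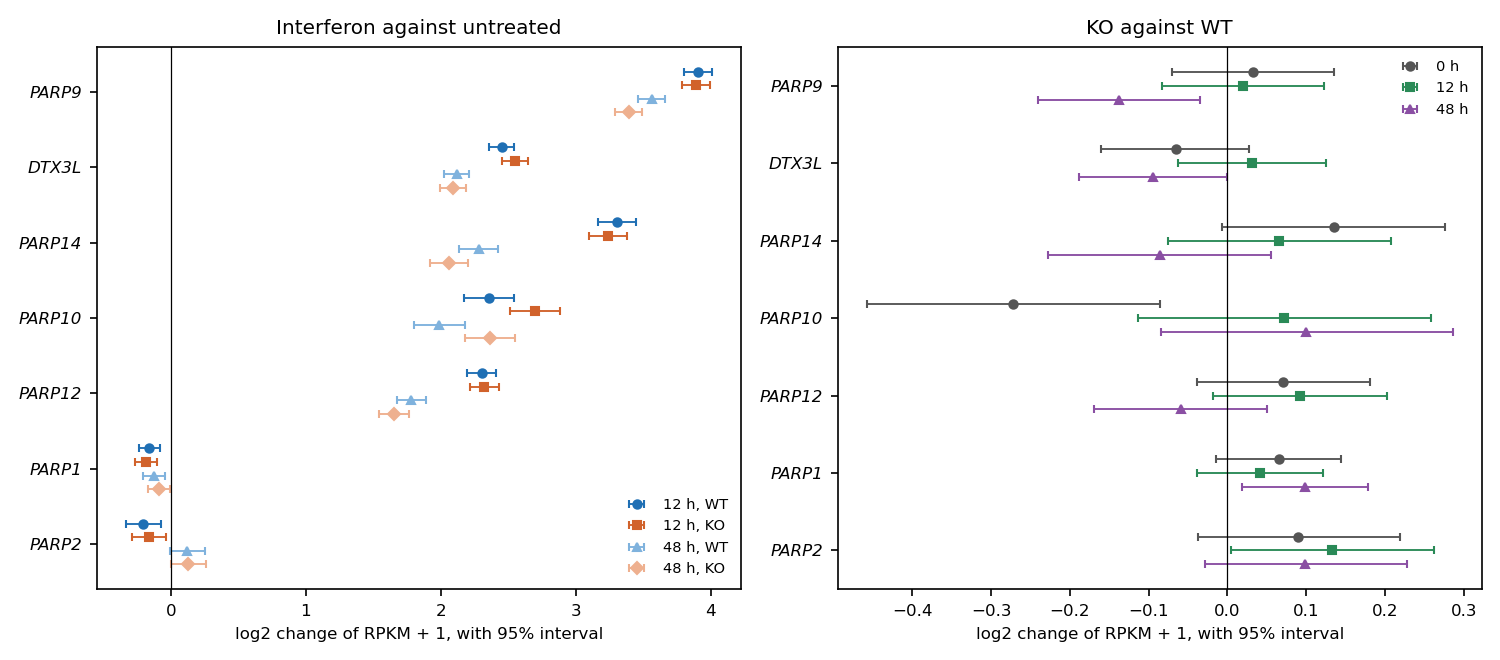
Log2 change of RPKM + 1 for the 7 genes with its 95% interval from limma (18 libraries, 3 per group). The left panel sets interferon against untreated cells at 12 and 48 h in each genotype, and the right panel sets KO against WT at 0, 12 and 48 h on a narrower axis. The 5 induced genes lie between 1.65 and 3.90 on the left, and every value on the right lies between -0.27 and 0.13.

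The induced genes came down by different amounts between 12 and 48 h. All 5 fell in both genotypes, where 11.3% of genes tested were called lower in WT and 14.0% in KO. PARP14 fell most, by 1.03 on the log2 scale in WT (SE 0.067, adjusted p = 1.75e-08) and by 1.18 in KO (adjusted p = 2.78e-09). PARP12 fell by 0.52 in WT and by 0.67 in KO, with adjusted p-values of 1.94e-06 and 8.48e-08. PARP9 fell by 0.34 and 0.50 and DTX3L by 0.33 and 0.46, with adjusted p-values from 9.85e-07 to 5.71e-05. PARP10 fell by 0.37 in WT (adjusted p = 0.00406) and by 0.34 in KO (adjusted p = 0.00587).

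Expressed as the share of the 12 h gain in mean RPKM still present at 48 h, PARP9 kept 77.3% in WT and 68.6% in KO, and DTX3L 74.8% and 67.2%. PARP10 kept 71.8% and 75.4%, PARP12 62.0% and 53.5%, and PARP14 43.3% and 37.5%. As deposited, PARP14 was therefore the only 1 of the 5 with less than 50% of its gain left at 48 h, in both genotypes. After median-of-ratios scaling, the PARP12 means in KO were 12.0, 68.9 and 40.2 RPKM at 0, 12 and 48 h. That puts the share of PARP12 in KO just under 50% too. Whether PARP14 differs from the other genes in this share was not tested.

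The order of levels changed with time. In untreated cells PARP1 was the highest of the 7 in RPKM and PARP9 the lowest, and neither overlapped its neighbour in either genotype. After 12 h PARP9 stood first and PARP14 next, ahead of PARP10 and PARP12, whose libraries overlapped, then PARP1, DTX3L and PARP2. By 48 h PARP9 was still first, PARP1 had returned to second place, and PARP10, PARP12, DTX3L, PARP14 and PARP2 followed. The neighbours that overlapped were PARP10 and PARP12 in untreated WT, DTX3L and PARP14 in untreated cells of both genotypes, and DTX3L and PARP14 in KO at 48 h.

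PARP9 and DTX3L share a start region but did not rise by the same factor. The ratio of PARP9 to DTX3L RPKM was 0.671, 0.652 and 0.696 in untreated WT libraries, 2.00, 1.96 and 1.92 at 12 h, and 1.99, 1.92 and 1.94 at 48 h. In KO libraries it was 0.766, 0.673 and 0.745 untreated, 1.98, 1.92 and 1.92 at 12 h, and 2.04, 1.83 and 1.81 at 48 h. DTX3L was thus the higher of the pair in every untreated library and PARP9 the higher in every treated one. On the log2 scale, with 1 added to each RPKM, the ratio was 1.40 higher at 12 h than in untreated cells (1.45 in WT, 1.34 in KO). A two-sided exact permutation test within genotype gave p = 0.005, the smallest that its 400 assignments can give, and 0.015 after adjustment over the 3 ratio tests. Between 12 and 48 h the difference was -0.03 (exact permutation p = 0.38, adjusted p = 0.57), and between KO and WT, within time, 0.01 (exact permutation p = 0.625 over 8000 assignments, adjusted p = 0.625). Without replicate 1 of KO at 48 h that last difference was -0.003. In GENCODE the 2 genes overlap on opposite strands; the libraries came from a stranded kit, and whether the reads were counted by strand is not given in the sources used here, so reads of the overlap may be shared between them.

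**Figure D4:**
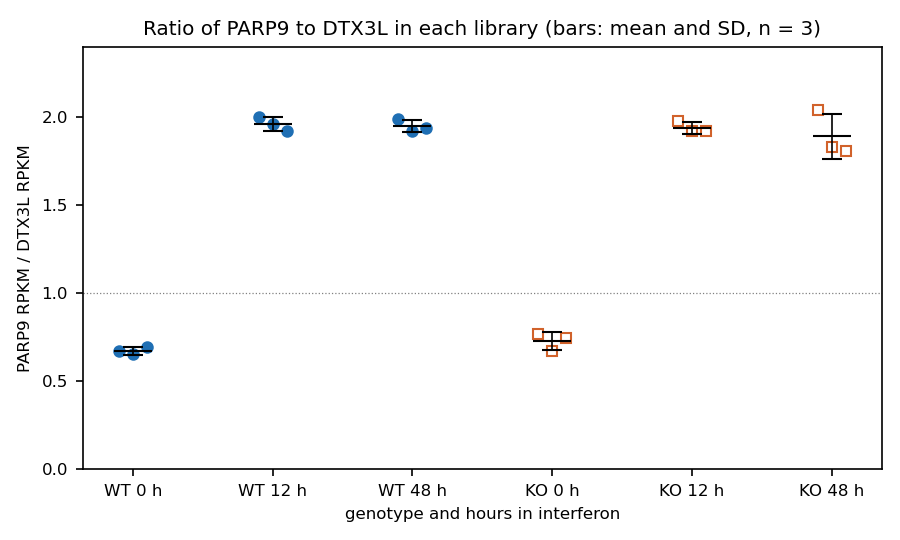
PARP9 RPKM divided by DTX3L RPKM in each library, by genotype and hours in interferon; black bars are the mean and SD of 3 libraries and the dotted line marks equal RPKM. The 6 untreated libraries lie between 0.652 and 0.766 and the 12 treated libraries between 1.81 and 2.04.

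PARP1 and PARP2, which make poly(ADP-ribose) at DNA breaks, did not share the rise. PARP1 was at 67.2, 66.7 and 64.0 RPKM in untreated WT cells, 57.7, 60.4 and 58.6 at 12 h, and 60.1, 59.9 and 61.3 at 48 h. In KO cells it was at 70.4, 69.1 and 67.5 untreated, 63.8, 57.7 and 60.6 at 12 h, and 65.7, 64.8 and 63.8 at 48 h. The 12 h libraries of each genotype were all below its untreated libraries, by a few RPKM.

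PARP2 was at 22.6, 22.7 and 23.8 RPKM in untreated WT cells, 21.4, 21.1 and 17.3 at 12 h, and 25.1, 24.7 and 25.5 at 48 h. In KO cells it was at 24.7, 25.1 and 23.9 untreated, 22.7, 21.3 and 21.5 at 12 h, and 26.8, 26.4 and 27.7 at 48 h. It was lowest at 12 h and highest at 48 h in both genotypes, and replicate 3 of WT at 12 h was well below the other libraries of its group.

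As deposited, both genes fell at 12 h. PARP1 fell by 0.16 in WT (SE 0.038, adjusted p = 0.00264) and by 0.18 in KO (adjusted p = 0.0008), and PARP2 by 0.20 in WT (SE 0.061, adjusted p = 0.012) and by 0.16 in KO (adjusted p = 0.037). Falls were frequent at 12 h, with 29.8% of genes tested called lower in WT and 32.8% in KO, and the median change over all genes tested was -0.09 in each. After median-of-ratios scaling, which sets that median near 0, none of the 4 falls passed the test: PARP1 was at -0.07 in WT (adjusted p = 0.184) and -0.08 in KO (adjusted p = 0.109), and PARP2 at -0.11 (adjusted p = 0.157) and -0.06 (adjusted p = 0.467). That scaling turned the calls over all genes at 12 h in WT from 2005 higher among 5964 into 2892 among 5609, and in KO from 2123 among 6485 into 3153 among 6193. The PARP2 call in WT was also lost without replicate 3 of WT at 12 h (-0.11, adjusted p = 0.0596) and when only the libraries compared were fitted (adjusted p = 0.0868). Without any 1 of replicates 1 and 2 of untreated KO and 2 and 3 of KO at 12 h, PARP2 in KO likewise missed the threshold, with adjusted p-values up to 0.104.

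At 48 h PARP1 was called lower in WT, by 0.12 (adjusted p = 0.0414), where 6.3% of genes tested were, but the call was lost under the same scaling (-0.12, adjusted p = 0.0592), with only the libraries compared in the fit (adjusted p = 0.0759), without the variance trend (adjusted p = 0.0692) and when any 1 of 8 libraries was left out: replicates 1 and 2 of untreated WT, replicate 3 of WT at 12 h, each WT replicate at 48 h, replicate 2 of untreated KO and replicate 3 of KO at 12 h. In KO at 48 h PARP1 was at -0.09 (adjusted p = 0.14), and PARP2 at 0.12 in WT (adjusted p = 0.219) and 0.13 in KO (adjusted p = 0.19, or 0.0483 without replicate 3 of WT at 12 h). Between 12 and 48 h PARP2 rose by 0.32 in WT (adjusted p = 0.000641) and 0.29 in KO (adjusted p = 0.00122), where 24.6% and 27.7% of genes tested were called higher. Those rises passed the test after scaling too, at 0.24 (adjusted p = 0.00689) and 0.20 (adjusted p = 0.0162), although the calls over all genes went from 3267 higher among 4772 to 2137 among 4552 in WT. PARP1 changed by 0.04 in WT (adjusted p = 0.478; -0.05 after scaling) and 0.09 in KO (adjusted p = 0.0552, or 0.014 without replicate 1 of KO at 12 h; 0.003 after scaling, adjusted p = 0.954) over the same interval.

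No member passed the test between KO and WT at any time by limma, where 4.89% of genes tested did in untreated cells, 3.62% at 12 h and 4.19% at 48 h. At an unadjusted p under 0.05 the numbers of members were 1, 1 and 3, and those of all 13280 genes tested 2400, 2256 and 2173. The largest difference was that of PARP10 in untreated cells, -0.27 in KO (95% interval -0.46 to -0.09, adjusted p = 0.0962), where its 3 KO libraries (8.68 to 10.7 RPKM) lay below its 3 WT libraries (11.7 to 12.4). It passed the threshold without replicate 2 of WT at 12 h (adjusted p = 0.0429), a library that is in neither group and enters only through the shared estimate of the spread. PARP14 in untreated cells was at 0.13 (interval -0.01 to 0.28) and at 0.23 without replicate 1 of untreated WT (adjusted p = 0.0313). PARP9 in untreated cells was at 0.03 (interval -0.07 to 0.14), DTX3L at -0.07 (interval -0.16 to 0.03) and PARP12 at 0.07 (interval -0.04 to 0.18).

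At 12 h the intervals were -0.08 to 0.12 for PARP9, -0.06 to 0.13 for DTX3L, -0.08 to 0.21 for PARP14, -0.11 to 0.26 for PARP10 and -0.02 to 0.20 for PARP12. At 48 h the KO minus WT difference was -0.14 for PARP9 (interval -0.241 to -0.035, adjusted p = 0.144) and -0.09 for DTX3L (adjusted p = 0.304), while PARP1 was at 0.10 (interval 0.02 to 0.18, adjusted p = 0.186). Counting libraries alone, the KO and WT libraries did not overlap for 3 members in untreated cells, 1 at 12 h and 6 at 48 h, against 23.6%, 21.0% and 20.2% of all genes tested. At 48 h PARP9, DTX3L, PARP14 and PARP12 were the 4 with all KO libraries below all WT libraries, which was so for 9.29% of genes tested, and PARP1 and PARP2 the 2 with all KO libraries above.

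The response itself was compared between genotypes by an interaction term. By limma 0 of 7 members passed the test at 12 h or at 48 h, where 0.0753% and 0.0828% of genes tested did; 1 and 3 members had an unadjusted p under 0.05, as did 764 and 826 of all genes tested. PARP10 had the largest values: the change in KO minus that in WT was 0.34 at 12 h (interval 0.08 to 0.61, adjusted p = 0.746) and 0.37 at 48 h (interval 0.11 to 0.64, adjusted p = 0.713), and both rest in part on its untreated libraries, described above. At 48 h the same difference was -0.22 for PARP14 (interval -0.42 to -0.02, adjusted p = 0.769) and -0.17 for PARP9 (interval -0.32 to -0.02, adjusted p = 0.76). The change from 12 to 48 h differed between genotypes by -0.16 for PARP9 (adjusted p = 0.689), -0.15 for PARP12 (adjusted p = 0.747), -0.15 for PARP14 (adjusted p = 0.817) and -0.13 for DTX3L (adjusted p = 0.747); no gene of the 13280 passed that test by limma, and 904 had an unadjusted p under 0.05.

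**Figure D5:**
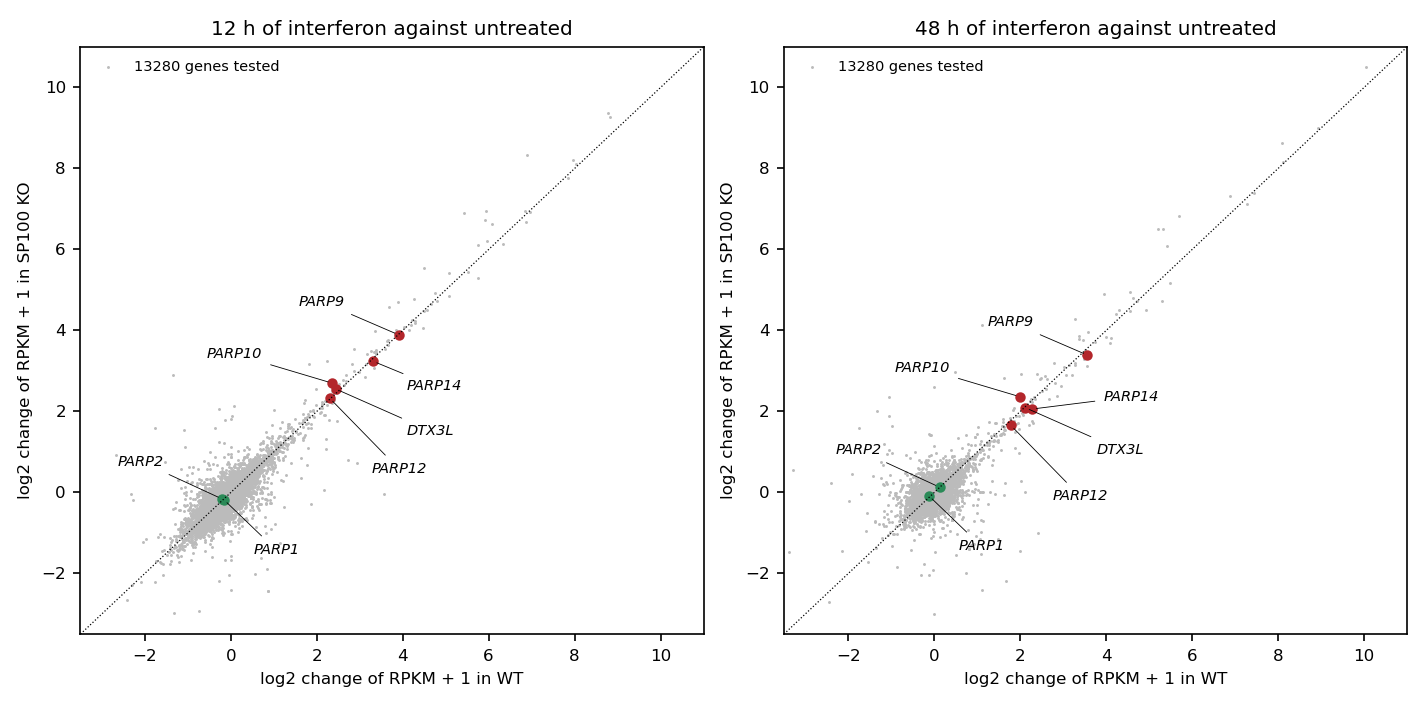
Log2 change of RPKM + 1 with interferon in WT (x axis) and in SP100 KO (y axis) for the 13280 genes tested, at 12 h (left) and 48 h (right); the dotted line marks equal change. Red points are the 5 induced genes and green points PARP1 and PARP2. PARP10 lies above the line at both times, at 2.36 in WT and 2.70 in KO at 12 h, and the other induced genes lie close to it.

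Genes whose pattern over the 18 libraries was most like that of each member were found by Pearson r of log2(RPKM + 1), as a description only, since the libraries of a group share a treatment. Closest to PARP9 were OAS3 (r = 0.9991) and MX2 (0.999), with DTX3L at rank 6 (0.9979). Closest to DTX3L were PLSCR1 (0.9989), RIGI (0.9987) and EIF2AK2 (0.9985), with PARP9 at rank 4. PARP14 was closest to IFI16 (0.9978), TDRD7 (0.9973) and NMI (0.9972), PARP12 to USP18 (0.9973), TAP1 (0.9972) and LAMP3 (0.9972), and PARP10 to IFIT3 (0.9934), HSH2D (0.9928) and MX1 (0.9926). PARP1 was closest to FOCAD (0.9411), OAT (0.9379) and CBL (0.9368), and PARP2 to NSMCE4A (0.9368), MOCS2 (0.9273) and IARS1 (0.9153).

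Of 11 other PARP family genes 10 were tested, since PARP15 was not in the table. At 12 h 4 rose and 2 fell in each genotype. Over all genes tested 15.1% were called higher and 29.8% lower in WT, against 16.0% and 32.8% in KO. The median log2 change of the 10 genes in WT was 0.04, against -0.09 over all genes tested and 2.35 for the 7 members. ZC3HAV1, the zinc finger antiviral protein, rose from 18.0 to 32.0 RPKM in WT, a log2 change of 0.80 (SE 0.051), and by 0.77 in KO. PARP4 rose by 0.50 in WT and 0.39 in KO, PARP3 by 0.46 and 0.30, and PARP8 by 0.45 and 0.31. The tankyrase TNKS fell by 0.31 and by 0.46. TIPARP fell by 0.18 in WT, a call lost after scaling, and PARP16 fell by 0.51 in KO. PARP6 was at 15.5, 15.0 and 27.8 RPKM in WT at 0, 12 and 48 h and at 14.1, 15.5 and 30.2 in KO, and it was called higher at 48 h, by 0.80 in WT and 1.04 in KO (SE 0.122), but not at 12 h. In all, 4 of the 10 were called higher at 48 h in WT and 2 in KO, where 6.52% and 5.9% of genes tested were. After scaling the 48 h calls were those of PARP6 and ZC3HAV1 in both genotypes and of PARP3 and PARP8 in WT alone. Between KO and WT none of the 10 passed limma's test at any time, and 3, 3 and 2 of them had an unadjusted p under 0.05 at 0, 12 and 48 h, beside the 2400, 2256 and 2173 of 13280 genes given above.

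Of the other Deltex ligases DTX2 and DTX4 were tested and both fell at 12 h, in contrast to DTX3L: DTX2 by 0.37 in WT and 0.50 in KO, and DTX4 by 0.42 and 0.63. The WT fall of DTX2 did not pass the test after scaling. Among 7 enzymes that remove ADP-ribose 5 were tested, with 1 called higher and 2 lower at 12 h in WT, against 1 and 3 in KO. Beside both lists, 15.1% of all genes tested were called higher and 29.8% lower in WT, against 16.0% and 32.8% in KO. ADPRS, which removes ADP-ribose from serine, rose by 0.52 in WT and 0.69 in KO. MACROD1 fell by 1.02 and 0.66 and OARD1 by 0.57 and 0.56, both macrodomain hydrolases, and NUDT16 fell by 0.27 in KO, a call lost after scaling. PARG, which degrades poly(ADP-ribose) chains, was at 0.06 in WT and -0.01 in KO and did not pass the test.

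Of 7 proteins that read or assist ADP-ribosylation 6 were tested; 3 fell in WT and 4 in KO at 12 h, and after scaling the falls still called were those of CHD1L and APLF in KO. Of all genes tested 29.8% were called lower at 12 h in WT and 32.8% in KO. HPF1, the cofactor that directs PARP1 and PARP2 to serine, was at -0.25 in WT and -0.22 in KO, and neither value passed the test after scaling. CHD1L, a remodeller recruited by poly(ADP-ribose), fell by 0.21 and 0.23, and only the KO value passed the test after scaling. All 8 single-strand break repair genes listed were tested, with 1 called higher and 5 lower in WT, against 1 and 4 in KO. Over all genes tested 15.1% were called higher and 29.8% lower in WT, against 16.0% and 32.8% in KO. Among the repair genes scaling left 1 higher and 3 lower calls in WT, with 2 higher and 3 lower in KO. The flap endonuclease FEN1 rose by 0.34 and 0.47, while TDP1 fell by 0.50 and 0.42 and the scaffold XRCC1 by 0.28 and 0.34.

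Of 11 genes of NAD metabolism, which supplies the substrate of all PARP enzymes, 8 were tested; 6 fell in WT, and 6 fell and 1 rose in KO at 12 h, with a median of -0.42 in WT. Of all genes tested 29.8% were called lower in WT and 32.8% in KO, and 15.1% and 16.0% higher. After scaling 5 of the NAD genes were called lower in WT and 4 in KO, with 1 higher in each. Over all 13280 genes the scaled calls were 2892 higher among 5609 in WT and 3153 among 6193 in KO. NNMT, which methylates nicotinamide, went from 16.9 to 5.78 RPKM in WT and from 9.13 to 2.50 in KO, log2 changes of -1.39 and -1.54 (SE 0.162). NMNAT3 fell by 0.86 and 0.83, NMRK1 by 0.49 and 0.59, NAPRT by 0.58 and 0.50 and NMNAT1 by 0.35 and 0.33, of which the NMNAT1 fall in KO was lost after scaling (-0.24, adjusted p = 0.0568). NAMPT, the rate-limiting enzyme of the salvage pathway, was at 0.15 in WT, which did not pass the test as deposited but did after scaling (0.25, adjusted p = 0.0244), and rose by 0.23 in KO. NNMT was the 1 gene of this list called between genotypes: the log2 difference of KO from WT was -0.82 in untreated cells (adjusted p = 0.00641) and -0.97 at 12 h. At 48 h 0 of the 8 were called, and after scaling NNMT was at -0.59 (adjusted p = 0.0555). Of all genes tested 4.89% were called between KO and WT in untreated cells, 3.62% at 12 h and 4.19% at 48 h.

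On chromosome 3 the order of genes is KPNA1, PARP9, DTX3L, PARP15, PARP14 and HSPBAP1, and as deposited none of the flanking genes tested was called higher at 12 h in either genotype. KPNA1, an importin, fell by 0.24 in WT at 12 h and was at -0.12 in KO, and HSPBAP1 fell by 0.45 and 0.38. Of 10 genes listed on either side 8 were tested, of which 4 fell in WT and 6 in KO, and the rest did not pass the test. Over all genes tested 15.1% were called higher and 29.8% lower in WT, against 16.0% and 32.8% in KO. After scaling 4 of the flanking genes were called lower in WT and 5 in KO, and 1, MIX23, passed the test as higher in each genotype. At 48 h 1 of the flanking genes was called higher and 1 lower in WT, against 0 and 1 in KO. Over all genes tested 6.52% were called higher and 6.3% lower in WT, and in KO 784 of 1770 calls were higher. CSTA, a cystatin, was the gene called higher in WT, by 0.19 (adjusted p = 0.0101). After scaling the gene called lower was FAM162A, at -0.22 in WT (adjusted p = 0.00822) and -0.19 in KO (adjusted p = 0.0198). PARP10 overlaps GRINA on the opposite strand and PARP2 overlaps a pair of antisense genes that are not in the table, so their reads carry the same reservation about strand as those of PARP9 and DTX3L.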

How the data were processed

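The authors deposited 1 table of RPKM values with 18 columns, 1 per library, and no counts, so no count model was fitted. The submitters' processing notes name cutadapt, STAR 2.6.1, RSEM 1.3.0, limma 3.50.3 and build hg19, without saying what each was used for; libraries were made with a stranded mRNA kit per the labels' protocols. Symbols were matched for 15666 of the 16472 gene IDs and for 12819 of the 13280 genes tested.

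Genes that reached 1 RPKM in 3 or more libraries entered limma 3.58.1 (R 4.3.3) as log2(RPKM + 1), in a model with 1 mean per group over all 18 libraries and variances that follow a mean trend. Every log2 change is on that scale, where the added 1 shrinks changes of weakly expressed genes. Benjamini-Hochberg adjustment ran over the 13280 genes within each of 12 comparisons, with a threshold of 0.05. The interaction of genotype with 48 h against 12 h was added after the data were seen. The code was tested on simulated data. "At least 2-fold" means called and at least 1 on the log2 scale.

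The 7 genes and all gene lists were chosen with earlier results of these data known. Genes named are the 7 members, SP100, members of the lists, and the 3 genes with the highest Pearson r to each member; a few items are not reported here. Replicates are biological per the labels, with no further account of their source, so p-values measure the spread between these libraries. Reads per library are unknown, so no counting interval is given; relative depth was 0.851 to 1.27 over 288 genes, with 87.4% of values within 5% of a whole step. Replicates correlated at 0.985 to 0.989. Gene order and overlaps came from GENCODE, and start windows from RefSeq on GRCh38.p14, a different build from the submitters', so no coordinate was carried between builds. Alternatives were the pseudocount (0.1), the filter, median-of-ratios scaling, the libraries of a comparison alone, variances without a trend, a replicate term, and each library left out.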

Additional observations from a re-analysis of the deposited data

How the results depend on the processing

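The rises of PARP9, DTX3L, PARP14, PARP10 and PARP12 and their falls from 12 to 48 h passed the test under each of the alternatives run. Over all values of the 7 genes 2051 alternatives kept direction and side of the threshold, 22 lost a call, 4 gained one and 23 changed sign. The lost calls were those of PARP1 and PARP2 given in the report. The number of members called between untreated KO and WT was 0 to 1 as single libraries were left out, being 1 without replicate 1 of untreated WT (PARP14) and 1 without replicate 2 of WT at 12 h (PARP10). Replicate numbers gave no sign of pairing when deviations from group means were correlated between libraries of different groups. The 45 pairs with the same number had r from -0.0972 to 0.157, and the 90 with different numbers from -0.109 to 0.145. Of 18 libraries 2 correlated best with their own number. With the replicate block, PARP1 at 48 h in WT was at -0.12 (adjusted p = 0.056) and 5 members were called there in place of 6; no other call changed.

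Sign changes fell on values near 0 that never passed the test. Under median-of-ratios scaling PARP1 from 12 to 48 h in WT was -0.05. Leaving out single libraries, KO against WT ranged from -0.009 to 0.066 for PARP9 untreated, -0.018 to 0.042 for PARP9 at 12 h, -0.033 to 0.136 for PARP10 at 12 h and -0.003 to 0.03 for the PARP9 to DTX3L ratio. The 12 h interaction ranged from -0.05 to 0.028 for PARP9, -0.046 to 0.065 for PARP12, -0.049 to 0.094 for PARP2 and -0.06 to 0.012 for PARP1. At 48 h it ranged from -0.057 to 0.007 for DTX3L and -0.013 to 0.024 for PARP2, and for 48 h against 12 h from -0.036 to 0.133 for PARP10 and -0.085 to 0.058 for PARP2. The cause of these changes was not tested. Depth is unknown, and 3 libraries per group limit what an interaction can show.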
